A study of Mus musculus with 12 samples.

Results

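The genes described are those of the myosin motor of heart muscle: 3 heavy chain genes (Myh6, Myh7, Myh7b), 4 light chain genes (Myl2, Myl3, Myl4, Myl7) and the kinase of the ventricular light chain, Mylk3. They were taken by gene symbol, with earlier results of these data known, and make up 8 of the 17052 genes in the deposited table. Messenger RNA was measured in the left ventricles of 12 C57BL/6 mice aged 12 weeks, 3 in each of 4 groups, with every library from a separate mouse. TAC+pimobendan mice had transverse aortic constriction at 8 weeks of age, a clip on the aortic arch that makes the left ventricle pump against a higher pressure, and then oral pimobendan at 1 mg/kg/day for 4 weeks. TAC+control mice had the same surgery without the drug. Sham+pimobendan mice had surgery without the clip and the same dose, and Sham+control mice had neither the clip nor the drug. Pimobendan is a calcium sensitizer and phosphodiesterase inhibitor given in heart failure.

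In a sarcomere, each myosin motor is a pair of heavy chains, and each heavy chain neck carries an essential and a regulatory light chain. Myh6 encodes the fast alpha heavy chain, which prevails in the adult mouse ventricle. Myh7 encodes the slow beta chain, which prevails before birth and which pressure overload is known to raise in rodents. Myh7b is a related heavy chain gene known in mammalian heart mainly as the source of a microRNA. Myl2 (regulatory) and Myl3 (essential) are the ventricular light chains, Myl7 (regulatory) and Myl4 (essential) the atrial and fetal ones, and Mylk3 encodes the kinase that phosphorylates the regulatory light chain in heart.

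The 3 heavy chain genes each hold a microRNA in an intron, and the mature sequences are shown because they link the 3 genes whose levels are compared below. By RefSeq positions (GRCm38.p6) and the introns of GENCODE transcripts, miR-208a-3p lies in intron 29 of Myh6 at chr14:54949072-54949093 on the minus strand, miR-208b-3p in intron 31 of Myh7 at chr14:54975710-54975731 on the minus strand, and miR-499-5p in intron 19 of Myh7b at chr2:155622893-155622913 on the plus strand. Capitals mark the seed, bases 2 to 8 from the 5′ end.
miR-208a-3p: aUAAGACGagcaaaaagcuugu
miR-208b-3p: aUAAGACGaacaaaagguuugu
miR-499-5p: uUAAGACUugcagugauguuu
The Myh6 and Myh7 microRNAs share the seed UAAGACG, which 2 of the 1679 mature mouse sequences in RefSeq carry, and they differ at 3 of 22 positions. The Myh7b microRNA has the seed UAAGACU. Its host is the member that passed the test between groups, a call kept in 10 of 21 alternative settings, as described below. The microRNAs themselves are not rows of the table and were not measured here.

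Levels are given in FPKM, fragments divided by transcript length and by the mapped total, so that levels can be compared between genes. Ordered by mean over the 12 libraries, the levels were 21354 FPKM for Myl2, 10586 for Myl3, 5036 for Myh6, 226 for Mylk3, 38.0 for Myh7, 8.30 for Myh7b, 2.00 for Myl4 and 0.642 for Myl7. Myl2 ranked 2nd of all genes in the table by mean FPKM, Myl3 5th and Myh6 11th. The ranges over the 12 libraries of neighbours in this order did not overlap, except for Myh7 (4.51 to 121 FPKM) with Myh7b (5.28 to 13.5 FPKM) and for Myl4 (1.06 to 3.03 FPKM) with Myl7 (0 to 2.16 FPKM). Together the members held between 5.65% and 6.29% of the summed FPKM of a library. From the steps between low FPKM values, the libraries held about 8310000 to 10870000 fragments, so that Myh7 rested on about 279 to 7755 fragments per library, Myh7b on 299 to 754, Myl4 on 10.3 to 29.4 and Myl7 on 0 to 11.9. These are estimates that cover counting error only.

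**Figure D1:**
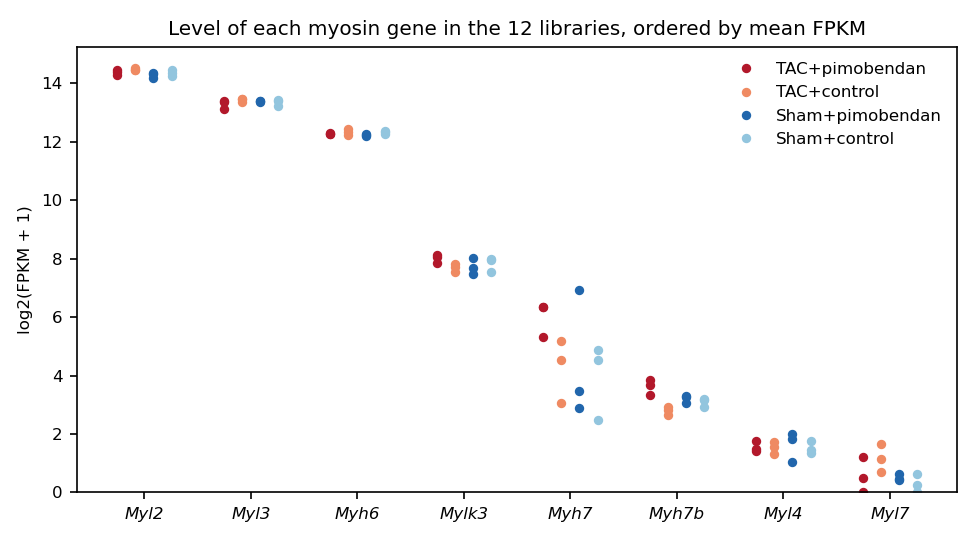
Level of each myosin gene in every library as log2(FPKM + 1), ordered by mean FPKM and coloured by group. Myl2, Myl3 and Myh6 lie far above the others in all 12 libraries, and Myh7 spans the widest range, from 4.51 to 121 FPKM.

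The light chains showed the ventricular pattern, and the other markers of atrial muscle were mixed. Sln (sarcolipin) was listed at 0 in 9 of the 12 libraries with a highest value of 0.52 FPKM, and Bmp10 at 0 in 10. Above 0 in all 12 libraries were Nppa at 137 to 554 FPKM, Stard10 at 18.6 to 25.8, Kcnj3 at 10.5 to 19.9, Tbx5 at 9.72 to 16.2 and Kcna5 at 6.13 to 19.0. Also above 0 in all 12, at lower levels, were Nr2f2 at 2.31 to 4.22 FPKM, Gja5 at 2.22 to 3.57, Nr2f1 at 0.98 to 1.79, Dkk3 at 0.61 to 1.26 and Mybphl at 0.07 to 0.75. The ventricular markers besides Myl2 and Myl3 were Lbh at 197 to 406 FPKM, Kcnip2 at 103 to 152, Irx4 at 17.5 to 27.8 and Hey2 at 2.19 to 3.93. The 15 atrial markers, 11 of them tested, summed to 345 to 599 FPKM in TAC+pimobendan, 209 to 336 in TAC+control, 295 to 638 in Sham+pimobendan and 293 to 384 in Sham+control, most of it Nppa. The atrial light chain Myl7 made up between 0 and 0.00947% of Myl2 plus Myl7, and Myl4 between 0.00979% and 0.0287% of Myl3 plus Myl4. The ventricular light chains kept a narrow ratio to the main heavy chain. Myl2 stood at 3.69 to 4.87 times Myh6 in FPKM, and Myl3 at 1.79 to 2.32 times. Since the tissue was measured in bulk, fewer cells of a type and less RNA per cell cannot be told apart.

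The groups were compared with limma on log2(FPKM + 1) over the 11415 genes that reached 1 FPKM in 3 or more libraries, and a gene was called at a Benjamini-Hochberg adjusted p under 0.05 over all of them. All 8 members passed that filter, Myl7 only through TAC+control replicates 1 and 2 and TAC+pimobendan replicate 2. Each group enters 2 of the 4 pairwise comparisons, so these share mice. In TAC+pimobendan minus TAC+control, 1 of the 8 members was called, Myh7b, where 3.27% of all genes tested were called (3.15% higher, 0.114% lower). With the replicate number as a block, no member was called in that comparison and 1 gene of all was, against 373 without the block. Myosin genes lay on both sides of 0 in that comparison, 4 above and 4 below, with a median log2 fold change of -0.018, beside a median of 0.095 over all genes tested. No member was called in TAC+pimobendan minus Sham+pimobendan, where 4.89% of all genes were (4.64% higher, 0.245% lower). None was called in TAC+control minus Sham+control or in Sham+pimobendan minus Sham+control, where 0% of all genes were called by limma. At an unadjusted limma p under 0.05, 518 genes passed in Sham+pimobendan minus Sham+control, with 0 members among them. In TAC+control minus Sham+control 951 genes did, with 1 member among them, Myl7. Because Myl7 entered the test only through libraries of TAC mice, no conclusion is drawn from its passing.

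**Figure D2:**
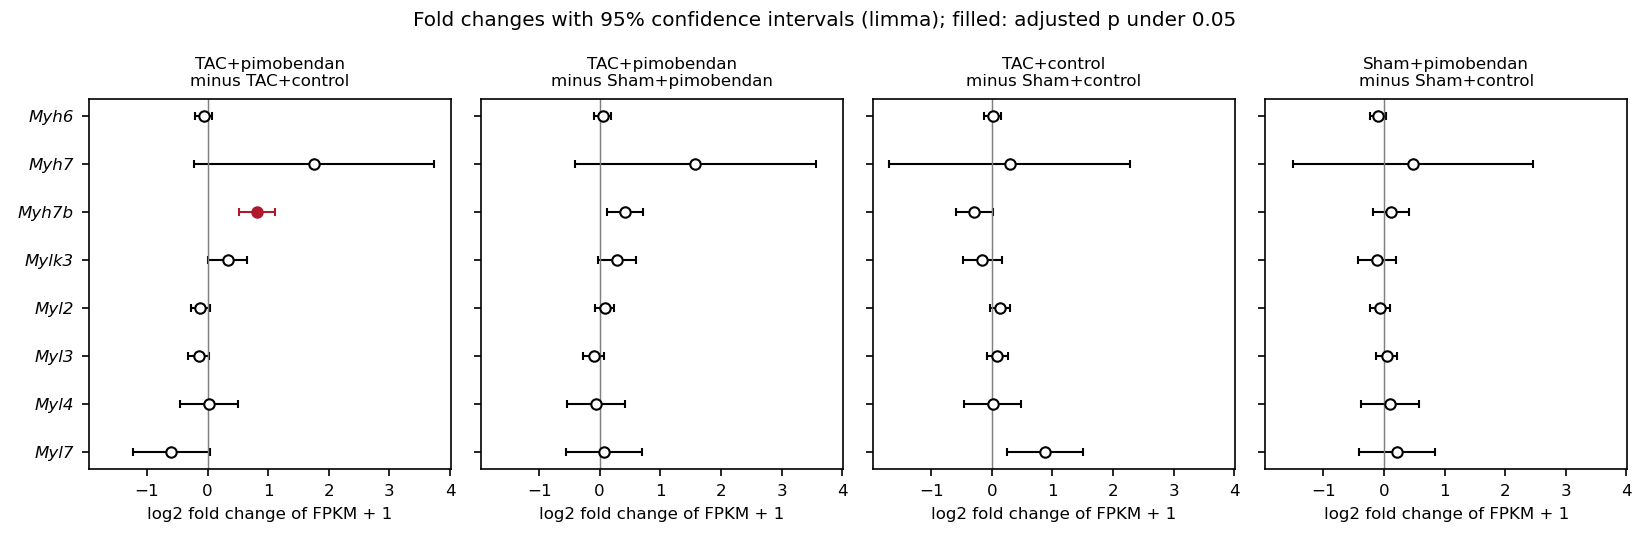
Log2 fold change of FPKM + 1 for each myosin gene in 4 comparisons, with 95% confidence intervals from limma; a filled red point has an adjusted p under 0.05. The red point is Myh7b in TAC+pimobendan minus TAC+control, and the widest intervals in every panel are those of Myh7.

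Gene coordinates below are those of RefSeq, GRCm38.p6. Among the heavy chains, Myh6 (NCBI Gene 17888, chromosome 14, 54941921 to 54968017) held its level within narrow limits. TAC+pimobendan libraries had 5041, 4931 and 4945 FPKM, TAC+control libraries 4837, 5233 and 5546 FPKM, Sham+pimobendan libraries 4907, 4699 and 4824 FPKM, and Sham+control libraries 4997, 5218 and 5257 FPKM. The highest library was 1.18 times the lowest. The pooled within-group SD of Myh6 on the log2 scale was 0.056, against a median of 0.152 over all genes tested. Myh6 in Sham+pimobendan lay below all 3 Sham+control libraries, as did 4.98% of all genes tested, with a log2 fold change of -0.10 ± 0.062 (SE; limma adjusted p = 0.910). In TAC+pimobendan it lay above all 3 Sham+pimobendan libraries, as did 18.6% of genes, by 0.048 ± 0.062 (adjusted p = 0.674). The 95% confidence interval for TAC+control minus Sham+control was -0.12 to 0.15.

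Myh7 (NCBI Gene 140781, chromosome 14, 54970684 to 54994626), which lies 2666 bases from Myh6 on the same strand, was the most variable member. It stood at 80.5, 39.1 and 80.4 FPKM in TAC+pimobendan libraries, at 7.30, 35.0 and 22.0 FPKM in TAC+control libraries, at 121, 10.2 and 6.37 FPKM in Sham+pimobendan libraries and at 28.3, 22.0 and 4.51 FPKM in Sham+control libraries. All 3 TAC+pimobendan libraries were above all 3 TAC+control libraries, as for 23.3% of the genes tested. The highest value of all belonged to a sham mouse given the drug. Group means were 66.7 ± 23.9 FPKM in TAC+pimobendan, 21.4 ± 13.8 in TAC+control, 45.8 ± 65.0 in Sham+pimobendan and 18.3 ± 12.3 in Sham+control (SD, n = 3 each). The within-group SD of Myh7 was 1.41 on the log2 scale, larger than for 99.96% of the genes tested, and the ratio of the highest to the lowest library was 26.8. With that spread, none of the differences passed the test. TAC+pimobendan minus TAC+control had a 95% confidence interval of -0.23 to 3.74, TAC+control minus Sham+control one of -1.69 to 2.28, and TAC+pimobendan minus Sham+pimobendan a log2 fold change of 1.58 ± 0.92 (limma adjusted p = 0.327). Sham+pimobendan replicate 1 decided the last of these: without it the log2 fold change was 2.83 (adjusted p = 0.0491), and Sham+pimobendan minus Sham+control turned to -0.77, against 0.48 with all libraries.

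As a share of Myh6 plus Myh7, which does not depend on the scaling of a library, Myh7 made up 1.57%, 0.786% and 1.60% in TAC+pimobendan libraries, 0.151%, 0.664% and 0.396% in TAC+control libraries, 2.40%, 0.216% and 0.132% in Sham+pimobendan libraries and 0.564%, 0.420% and 0.0857% in Sham+control libraries. The mean share reached 1.32 ± 0.462% in TAC+pimobendan, against 0.403 ± 0.257% in TAC+control (SD, n = 3 each), a difference of 0.916 percentage points (two-sided exact permutation test, p = 0.1, the smallest value 3 against 3 can give). Averaged over both surgeries, the share was 1.12% with pimobendan and 0.380% without it, a difference of 0.738 percentage points (exact permutation within surgery, 400 arrangements, p = 0.085). That difference was 0.367 percentage points without Sham+pimobendan replicate 1 (p = 0.195), 0.914 without replicate 2 of that group (p = 0.04) and 0.935 without replicate 3 (p = 0.035), by the same exact permutation test. The share in TAC+control did not separate from that in Sham+control (0.403% against 0.356%, exact permutation p = 0.8). Myh7 reads are uncertain in 2 respects: its coding sequence is close to that of Myh6, and the antisense RNA gene Mhrt overlaps it, with no strand marking stated for the libraries.

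**Figure D3:**
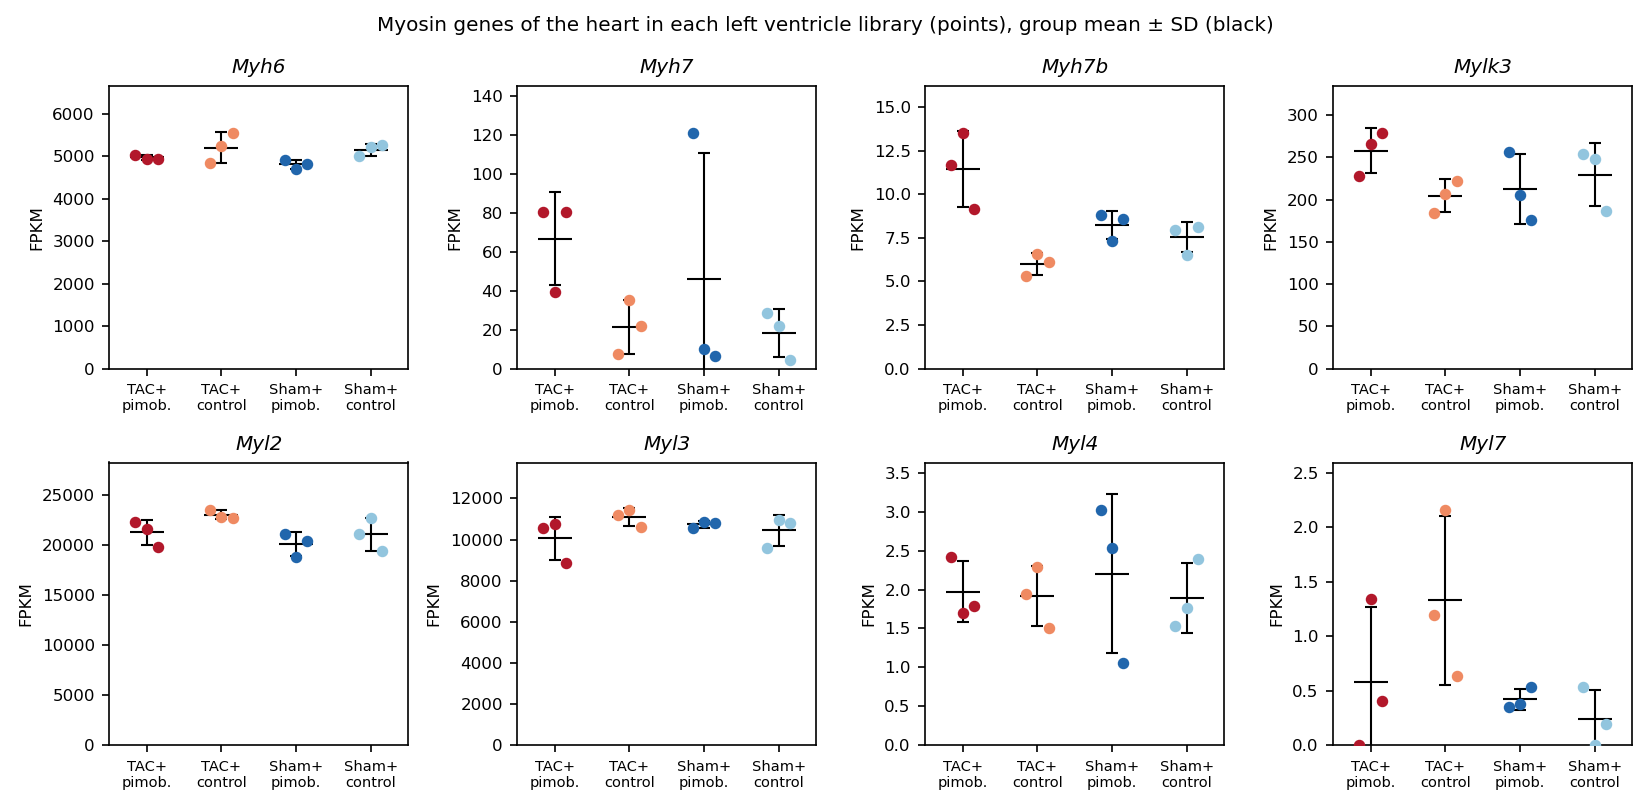
FPKM of the 8 myosin genes in every library, in 4 groups, with the group mean and SD in black; lower SD bars that would pass 0 are drawn to 0. Myh7b in TAC+pimobendan (9.14 to 13.5 FPKM) lies above the 9 other libraries, while Myh6, Myl2 and Myl3 differ little between groups.

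Myh7b (NCBI Gene 668940, chromosome 2, 155611243 to 155634307), the host gene of miR-499, was higher in TAC+pimobendan. Its level was 11.7, 13.5 and 9.14 FPKM in TAC+pimobendan libraries, 5.28, 6.57 and 6.12 FPKM in TAC+control libraries, 8.79, 7.34 and 8.59 FPKM in Sham+pimobendan libraries and 7.93, 6.53 and 8.14 FPKM in Sham+control libraries. Every TAC+pimobendan library was above the 9 others, which 4.82% of the genes tested also showed. The means were 11.4 ± 2.19 FPKM in TAC+pimobendan and 5.99 ± 0.655 FPKM in TAC+control (SD, n = 3 each), a ratio of 1.91. On the log2 scale the difference was 0.82 ± 0.14 (95% confidence interval 0.52 to 1.12, limma adjusted p = 0.0409). With the replicate number as a block, the adjusted p was 0.0788 and the call was lost. The direction held in all 21 alternative settings, with log2 fold changes of 0.69 to 0.96, but the call was kept in 10 of them (adjusted p 0.0130 to 0.159); it was lost with median-ratio scaling (0.71, adjusted p = 0.0628) and with the GC trend of each library removed (0.85, adjusted p = 0.10). The summed level of 5 red cell genes also moved with these groups, at 1142 to 2281 FPKM in TAC+pimobendan, 4199 to 6702 in TAC+control, 452 to 1906 in Sham+pimobendan and 1553 to 3063 in Sham+control, and its part in the result was not tested.

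Against the other groups, Myh7b in TAC+pimobendan was 0.42 ± 0.14 above Sham+pimobendan on the log2 scale (limma adjusted p = 0.0920). TAC+control stood at -0.29 ± 0.14 relative to Sham+control, with overlapping libraries (adjusted p = 0.605), and Sham+pimobendan at 0.12 ± 0.14 relative to Sham+control (adjusted p = 0.929). The difference between the drug effect in TAC mice and in sham mice was 0.70 ± 0.19 for Myh7b (adjusted p = 0.0918); 0% of all genes passed this interaction test in limma, and 2312 genes, with Myh7b as the 1 member among them, did at an unadjusted p under 0.05. The mean drug effect over both surgeries was 0.47 ± 0.097 (adjusted p = 0.240, where 0.00876% of genes were called).

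Of the light chains, the ventricular pair Myl2 and Myl3 differed little between the groups. Myl2 (NCBI Gene 17906, chromosome 5, 122092724 to 122113473) had 22307, 21609 and 19832 FPKM in TAC+pimobendan libraries and 23533, 22813 and 22707 FPKM in TAC+control libraries, and every TAC+pimobendan library was below every TAC+control library, as for 6.64% of genes tested. The log2 fold change was -0.12 ± 0.075 (95% confidence interval -0.28 to 0.045, limma adjusted p = 0.339). Sham+pimobendan libraries had 21071, 18780 and 20373 FPKM of Myl2 and Sham+control libraries 21113, 22713 and 19392 FPKM. Myl3 (NCBI Gene 17897, chromosome 9, 110763678 to 110769802) had 10549, 10765 and 8841 FPKM in TAC+pimobendan libraries, 11211, 11456 and 10627 in TAC+control, 10560.1, 10842 and 10822 in Sham+pimobendan and 9600.2, 10971 and 10784 in Sham+control. TAC+pimobendan replicate 3 was the lowest of the 12 for Myl3. The largest of its 4 pairwise log2 fold changes in size was -0.15 ± 0.081, for TAC+pimobendan minus TAC+control (95% confidence interval -0.32 to 0.028, limma adjusted p = 0.265).

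The atrial light chains were near the limit of detection in every group. Myl4 (NCBI Gene 17896, chromosome 11, 104546017 to 104587215) had 2.42, 1.70 and 1.79 FPKM in TAC+pimobendan libraries, 1.95, 2.29 and 1.51 in TAC+control, 3.03, 2.53 and 1.06 in Sham+pimobendan and 1.53, 1.76 and 2.40 in Sham+control. These groups overlapped throughout, with log2 fold changes of -0.062 to 0.10 in the 4 pairwise comparisons. Myl7 (NCBI Gene 17898, chromosome 11, 5896637 to 5898782) was listed at 0, 1.34 and 0.40 FPKM in TAC+pimobendan libraries, at 1.19, 2.16 and 0.63 in TAC+control, at 0.35, 0.38 and 0.53 in Sham+pimobendan and at 0.53, 0 and 0.19 in Sham+control. All 3 TAC+control libraries were above all 3 Sham+control libraries, as for 3% of the genes tested. That share is no like comparison, since Myl7 passed the filter only through libraries of TAC mice, where it was high. The log2 fold change of FPKM + 1 was 0.88 ± 0.29 (limma adjusted p = 0.534), and the highest of these values stands for about 11.9 fragments.

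Mylk3 (NCBI Gene 213435, chromosome 8, 85324928 to 85386340) had 228, 267 and 279 FPKM in TAC+pimobendan libraries, 184, 207 and 223 FPKM in TAC+control libraries, 257, 206 and 176 FPKM in Sham+pimobendan libraries and 255, 248 and 187 FPKM in Sham+control libraries. Mylk3, Myh7b and Myh7 were the 3 members whose TAC+pimobendan libraries all lay above the TAC+control libraries, and 23.3% of all genes did so. For Mylk3 the log2 fold change was 0.33 ± 0.15 (95% confidence interval 0.012 to 0.65, limma adjusted p = 0.174). TAC+pimobendan overlapped with both sham groups, and the log2 difference from Sham+pimobendan was 0.29 ± 0.15 (adjusted p = 0.265).

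Across the 12 libraries, Mylk3 and Myh7 varied together. Of the 28 pairs of members, this was the one pair with an adjusted p under 0.05 for Pearson's r: r = 0.813 (permutation p = 0.00173, Benjamini-Hochberg adjusted p = 0.0461 over 36 relations) and Spearman's rho = 0.804 (permutation p = 0.00252, adjusted p = 0.0697). Without the 2 libraries farthest from the median of Myh7, r was 0.778, and for deviations from the group means it was 0.822. In both genes the 2 lowest of the 6 sham libraries were Sham+pimobendan replicate 3 and Sham+control replicate 3. Myh7 and Myh7b had an r of 0.463 (permutation p = 0.129, adjusted p = 0.652), and Myh6 and Myh7 an r of 0.036 (permutation p = 0.913, adjusted p = 0.939). Genes that are not members came closer to Mylk3 and to Myh7 than these 2 to each other, with an r of 0.959 for Mylk3 and Arhgap20 and 0.901 for Myh7 and Cdc123. What share of all genes had an r as high as 0.813 with Mylk3 or Myh7 was not computed.

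Mylk3 also moved with a property of the libraries. The GC trend of a library was defined as the rank correlation (Spearman's rho over genes) of transcript GC content with how far each gene's level in that library departed from its 12-library mean. It was -0.209, -0.521 and -0.541 in TAC+pimobendan libraries, 0.130, 0.0225 and 0.288 in TAC+control, 0.143, 0.363 and 0.544 in Sham+pimobendan and -0.358, 0.0893 and 0.470 in Sham+control. Mylk3 had an r of -0.800 with it (permutation p = 0.00256, adjusted p = 0.0461; r = -0.673 without the 2 libraries farthest from its median), and 10.2% of all genes had one as low or lower. For Myh7 r was -0.680, which did not pass the adjustment (permutation p = 0.0159, adjusted p = 0.190), and 16.5% of all genes had one as low or lower. For Myh7b it was -0.510 (permutation p = 0.0888, adjusted p = 0.533), a value that 24.9% of genes reached. The transcripts' own GC content was 50.4% for Mylk3, 56.2% for Myh7 and 59.2% for Myh7b. With the GC trend of each library removed, the r between Mylk3 and Myh7 was 0.826, and the log2 fold changes for TAC+pimobendan minus TAC+control were 0.24 ± 0.15 for Mylk3 (limma adjusted p = 0.396), 1.76 ± 0.95 for Myh7 (adjusted p = 0.325) and 0.85 ± 0.13 for Myh7b (adjusted p = 0.10, unadjusted p = 2.95e-05). This removal subtracts a curve on transcript GC content in each library. After it, the r with the library GC trend was still -0.800 for Mylk3, -0.698 for Myh7 and -0.673 for Myh7b. Whether Mylk3 and Myh7 vary together apart from that trend was therefore not tested.

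**Figure D4:**
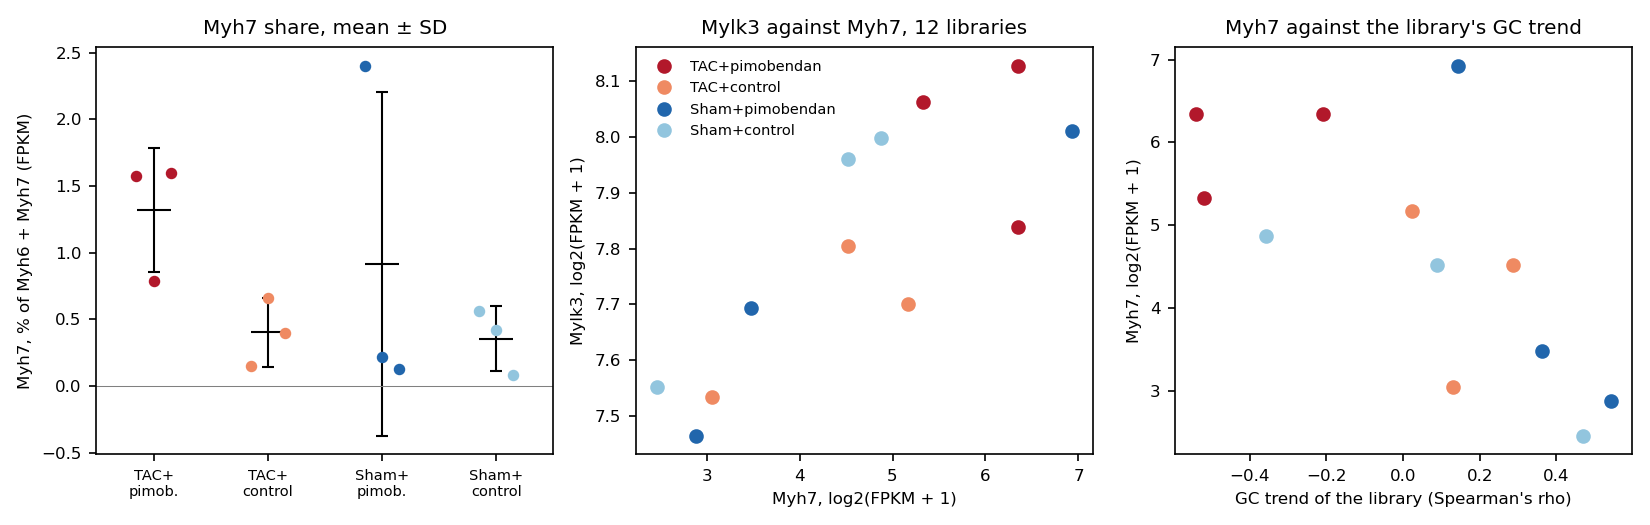
Left, Myh7 FPKM in percent of Myh6 plus Myh7 in every library with the group mean and SD; middle, Mylk3 against Myh7 as log2(FPKM + 1); right, Myh7 against the GC trend of the library. Sham+pimobendan replicate 1 has the highest share, 2.40%, and Mylk3 rises with Myh7 (r = 0.813, n = 12). The r of Myh7 with the GC trend, -0.680, did not pass the adjustment (permutation test, adjusted p = 0.190).

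The promoters of Myh7, Mylk3 and Myh7b are shown because these were the members above TAC+control in every TAC+pimobendan library and because Myh7 and Mylk3 moved together. Each runs from 250 bases before to 50 after a RefSeq start (GRCm38.p6): Myh7 at chr14:54994577-54994876 on the minus strand, Mylk3 at chr8:85380992-85381291 on the minus strand and Myh7b at chr2:155610993-155611292 on the plus strand. Capitals mark motifs of heart muscle genes found on either strand: the MCAT element CATTCC bound by TEAD factors, the GATA site GATAA, the E-box CANNTG, the thyroid hormone receptor motif AGGTCA, the CArG box and the MEF2 site, of which no 2 matches overlap here.
Myh7: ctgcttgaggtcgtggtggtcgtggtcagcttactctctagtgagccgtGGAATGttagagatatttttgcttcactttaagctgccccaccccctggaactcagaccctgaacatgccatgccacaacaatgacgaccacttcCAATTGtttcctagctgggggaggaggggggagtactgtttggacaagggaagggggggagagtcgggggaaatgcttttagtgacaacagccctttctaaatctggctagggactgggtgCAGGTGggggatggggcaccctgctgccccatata
Mylk3: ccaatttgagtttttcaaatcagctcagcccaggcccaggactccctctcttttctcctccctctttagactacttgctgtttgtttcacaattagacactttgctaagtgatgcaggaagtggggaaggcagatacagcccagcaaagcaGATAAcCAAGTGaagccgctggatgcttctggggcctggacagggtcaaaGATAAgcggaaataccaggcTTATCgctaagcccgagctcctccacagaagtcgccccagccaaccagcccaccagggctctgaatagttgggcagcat
Myh7b: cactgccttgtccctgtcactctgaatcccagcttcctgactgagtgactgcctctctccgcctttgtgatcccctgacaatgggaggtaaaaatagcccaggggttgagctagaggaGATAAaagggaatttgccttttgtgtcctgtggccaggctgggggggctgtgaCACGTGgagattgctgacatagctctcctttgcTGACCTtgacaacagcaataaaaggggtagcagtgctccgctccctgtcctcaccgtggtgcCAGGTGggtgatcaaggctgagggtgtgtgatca
The Myh7 window holds 1 MCAT element, 201 bases before the start, and 2 E-boxes. The Mylk3 window holds 3 GATA sites and 1 E-box, and the Myh7b window 1 GATA site, 2 E-boxes and 1 thyroid motif, 46 bases before the start. An E-box is the one motif present in all 3 windows shown, and 72.3% of the 32851 mouse promoters in the same table hold one. MCAT is held by 14.7% of them, GATA by 25.4%, the thyroid motif by 16.3%, the CArG box by 1.63% and the MEF2 site by 3.19%. RefSeq also lists another start for Myh7, whose window holds 2 E-boxes and no MCAT element, and another for Mylk3, whose window holds 1 MCAT element, no E-box and no GATA site. The motifs are not particular to the genes shown. Windows of Myh6, Myl2, Myl3 and Myl7 hold an E-box too, while that of Myl4 holds none of the motifs. MCAT also occurs in Myh6, Myl3 and Myl7, GATA in Myl2, Myl3 and Myl7, and the thyroid motif in Myl2. These matches describe letters and not binding.

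A further 5 lists of genes around cardiac myosin were followed, and most of their measured members did not pass the test. Among 11 other myosin II heavy chains, 4 were tested and 0 called in any comparison. The skeletal chains Myh1 and Myh4 averaged 0.000833 FPKM each. Smooth muscle Myh11 had 6.75, 5.22 and 4.11 FPKM in TAC+pimobendan, 3.88, 5.52 and 3.86 in TAC+control, 5.96, 6.13 and 6.18 in Sham+pimobendan and 5.90, 6.16 and 8.37 in Sham+control; TAC+control stood at -0.53 ± 0.17 relative to Sham+control (limma adjusted p = 0.492). Of 8 other light chains, 7 were tested and 0 called. Myl9, of smooth muscle, came nearest at -0.56 ± 0.16 in TAC+pimobendan minus Sham+pimobendan (adjusted p = 0.0561). The summed level of 5 smooth muscle markers was 50.9 to 104 FPKM in TAC+pimobendan, 108 to 125 in TAC+control, 149 to 249 in Sham+pimobendan and 115 to 202 in Sham+control, and its part in these values was not tested.

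Among 14 light chain kinase and phosphatase genes, 13 were tested, and 0 were called in TAC+pimobendan minus TAC+control. Against Sham+pimobendan, 2 of the 13 rose in TAC+pimobendan, where 4.64% of all genes tested rose. Both encode subunits of myosin phosphatase, the enzyme that removes phosphate from the regulatory light chain. Ppp1r12a, a targeting subunit, had 6.23, 8.80 and 8.73 FPKM in TAC+pimobendan libraries and 5.16, 5.22 and 5.03 FPKM in Sham+pimobendan libraries, a log2 fold change of 0.53 ± 0.13 (limma adjusted p = 0.0390). The catalytic subunit Ppp1cb had 82.6, 91.0 and 104 FPKM in TAC+pimobendan libraries and 71.8, 68.6 and 59.95 FPKM in Sham+pimobendan libraries, a log2 fold change of 0.46 ± 0.12 (adjusted p = 0.0429). In neither gene did these groups overlap, and 18.6% of all genes tested were likewise higher without overlap. The other targeting subunits in the list, Ppp1r12b and Ppp1r12c, were not called in this comparison. Their log2 fold changes were 0.020 ± 0.096 (limma adjusted p = 0.925) and -0.10 ± 0.079 (adjusted p = 0.455). Over the 12 libraries Ppp1r12b averaged 49.0 FPKM and Ppp1r12c 29.3, against 6.21 for Ppp1r12a. The median log2 fold change of the 13 was 0.042 in TAC+pimobendan minus TAC+control and 0.017 in TAC+pimobendan minus Sham+pimobendan, beside 0.095 and -0.0061 over all genes.

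Of 20 thick filament partners and assembly factors, 17 were tested and 0 called in TAC+pimobendan minus TAC+control. Against Sham+pimobendan, 2 of the 17 rose in TAC+pimobendan, where 4.64% of all genes tested rose. These were the giant scaffold Ttn, by 0.65 ± 0.14, and the chaperone Hsp90aa1, by 0.89 ± 0.23 (limma adjusted p = 0.0314 and 0.0455). The myosin-binding protein gene Mybpc3 overlapped between groups, at 938, 1244 and 732 FPKM in TAC+pimobendan and 1234, 1195 and 1067 FPKM in TAC+control. Trim63, a ubiquitin ligase of muscle, stood at -0.78 ± 0.19 in TAC+control relative to Sham+control and was not called (adjusted p = 0.408). Of 32 transcription regulators of cardiac myosin genes, 30 were tested. In TAC+pimobendan minus TAC+control, where 3.15% of all genes tested rose, the one called was Mef2a, which rose. Its level was 35.8, 39.2 and 41.1 FPKM in TAC+pimobendan libraries and 23.0, 24.5 and 25.6 FPKM in TAC+control libraries, by 0.65 ± 0.10 (adjusted p = 0.0409; 0.0788 with the replicate number as a block, which ends the call). Against Sham+pimobendan, 3 of the 30 rose in TAC+pimobendan, beside the 4.64% of all genes tested. They were Mef2a (0.54, limma adjusted p = 0.0314), Sp3 (0.82, adjusted p = 0.0314) and Purb (0.54, adjusted p = 0.0497). Sp3 and Purb encode factors that can repress myosin genes. Thra, the main thyroid hormone receptor gene of heart, and Tead1, which encodes a factor that binds MCAT elements, overlapped between TAC+pimobendan and TAC+control.

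All 7 called genes of these lists had transcripts of low GC content, 39.7% to 47.4%, and Pearson correlations of -0.944 to -0.776 with the library GC trend over the 12 libraries. With that trend removed, 0 genes were called by limma in either comparison, with 2220 genes at an unadjusted p under 0.05 in TAC+pimobendan minus TAC+control and 1618 in TAC+pimobendan minus Sham+pimobendan. The 558 calls over all genes in TAC+pimobendan minus Sham+pimobendan, which hold these 7 genes, were lost in other settings too. There, 0 genes were called with no filter on low values, with the replicate number as a block or with only the groups compared. The same held without Sham+pimobendan replicate 2 or 3, or without TAC+pimobendan replicate 2 or 3. No listed gene was called in TAC+control minus Sham+control or in Sham+pimobendan minus Sham+control.

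**Figure D5:**
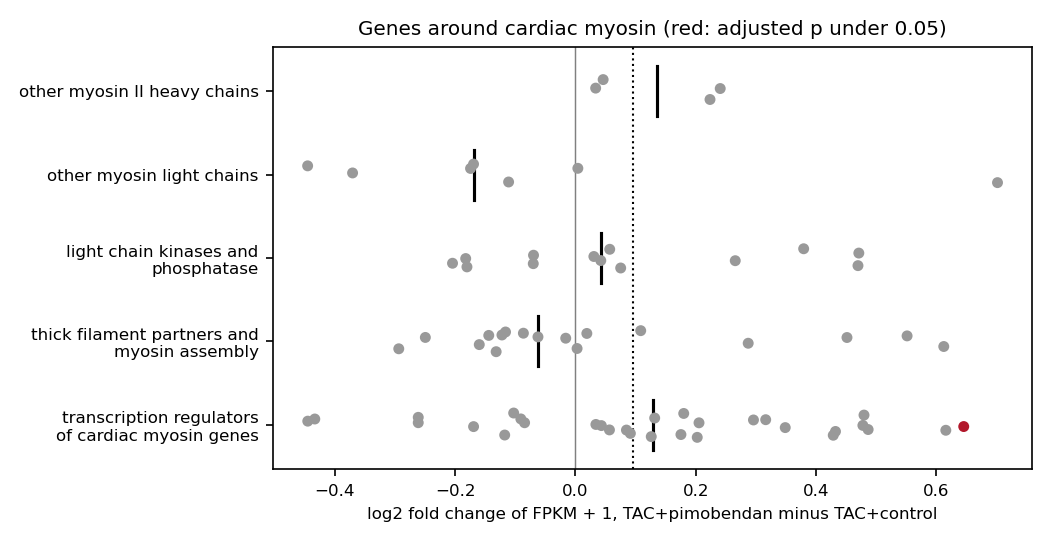
Log2 fold change of FPKM + 1 in TAC+pimobendan minus TAC+control for the tested genes of 5 lists around cardiac myosin; each point is a gene, black bars are list medians and the dotted line is the median of all genes tested, 0.095. The red point is Mef2a.

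For each member, the 3 genes with the most similar pattern over the 12 libraries were found by Pearson's r among genes with a mean of at least 5 FPKM; these are descriptions of 12 points that share libraries. For Myh7 they were Cdc123 (r = 0.901), Morf4l1 (0.884) and Zfp869 (0.883), and for Mylk3 Arhgap20 (0.959), Cnbp (0.946) and March6 (0.941). Myh7b was most like Sap18 (0.936), Plekha6 (0.923) and Tceal8 (0.920). Myh6 was most like Hk2 (0.780), Myl2 like Ccl27a (0.833), Myl3 like Aimp2 (0.945), Myl4 like Edc4 (0.792) and Myl7 like Timm10 (0.900). No myosin gene was among the 3 genes most like another. The natriuretic peptide gene Nppa, another gene of the fetal ventricle, had its highest level in the library with the highest Myh7. It stood at 331, 521 and 268 FPKM in TAC+pimobendan, 272, 169 and 137 in TAC+control, 554, 245 and 230 in Sham+pimobendan and 222, 271 and 310 in Sham+control.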

How the data were processed

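Libraries were made from left ventricle RNA selected with oligo(dT) beads and sequenced as DNA nanoballs, per the labels' protocols. The authors deposited FPKM and TPM values per gene and library. Per the submitters' processing notes, the build was GRCm38 and the tools were RSEM 1.2.12, HISAT2 2.0.4, DESeq2 1.4.5 and Bowtie2 2.2.5, without their roles. The members, gene lists and comparisons were chosen with earlier results of these data known. The limma-trend model (limma 3.58.1, R 4.3.3) was fitted to log2(FPKM + 1) with 1 mean per group and 8 residual degrees of freedom, and was tested on simulated data. Fold changes on this scale understate those of low genes. Fragments per library were estimated from the value of 1 fragment in single-transcript genes of up to 2500 bases. Shares were tested by exact permutation, correlations by 100000 permutations. Partner genes named were those called, those with the smallest p per list, and Nppa, Mybpc3, Thra, Tead1, Ppp1r12b and Ppp1r12c. The deposited strand column differed from RefSeq for several members and was not used. The labels number the mice 1 to 3 in each group without saying what a number shares. Deviations from the group means of same-numbered TAC+pimobendan and TAC+control libraries had correlations of 0.154, 0.208 and 0.101, all above the limit of 0.1 set for pairing, so calls of that comparison are also given with the replicate number as a block. In limma the block was an effect of the replicate number common to all 4 groups, and so not a paired test of these groups alone. Alternatives were median-ratio and quantile scaling, deposited TPM, other filters, a pseudocount of 0.1, a replicate block, fits of the groups compared, leaving out each library and, chosen after seeing the data, removal of each library's GC trend. The relations between members were also computed after seeing the data. Sequences and motifs came from RefSeq tables, and intron numbers, transcript lengths and transcript GC content from GENCODE. Some genes of the partner lists are not reported here.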

Additional observations from a re-analysis of the deposited data

How the results depend on the processing

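In a pairwise test of a share the p cannot fall under 0.1, so its side of the threshold was fixed in advance. Over 20 or 21 alternatives of the fold changes and 9 to 15 of the shares, most values kept their direction, with a change of 0 counted as kept. Most fold changes also kept their side of the threshold. The call of Myh7b in TAC+pimobendan minus TAC+control did not: 0 members were called with median-ratio scaling (0.71, adjusted p = 0.0628), quantile normalization (0.69, adjusted p = 0.123), no filter on low values (0.82, adjusted p = 0.0651), the replicate block (0.82, adjusted p = 0.0788), removal of each library's GC trend (0.85, adjusted p = 0.10) or only the groups compared (0.82, adjusted p = 0.0891). Leaving out each library gave 0 to 1 called members and log2 fold changes of 0.70 to 0.96; the call was lost without Sham+control replicate 2, Sham+pimobendan replicate 2, TAC+control replicate 1, TAC+control replicate 3 or TAC+pimobendan replicate 2. The number of all genes called in this comparison was 373, against 1110 with TPM, 1 with the replicate block and 0 with the other 5 of those settings; it was 0 to 1190 over the libraries left out. The median log2 fold change of all genes was 0.095, against -0.0058 with median-ratio scaling and 0.168 with TPM. The cause was not tested. The replicate block changed no other call among the myosin genes or shares; over all genes it left 0 calls in TAC+pimobendan minus Sham+pimobendan, against 558 without it, and the 7 partner genes called there had adjusted p of 0.0652 to 0.0860 with it. For group pairs other than TAC+pimobendan and TAC+control, deviations of same-numbered libraries from their group means had correlations of -0.44 to 0.25, and in none of these were all 3 above 0.1.

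Without Sham+pimobendan replicate 1, 1 member (Myh7) was called in TAC+pimobendan minus Sham+pimobendan, against 0 without any other library. In TAC+control minus Sham+control, leaving out a library gave log2 fold changes of -0.035 to 0.063 for Myh6, -0.45 to 0.89 for Myh7 and -0.080 to 0.13 for Myl4; Myh6 was -0.032 with quantile normalization and -0.032 with TPM, and Myl4 -0.019 with TPM. In TAC+pimobendan minus TAC+control, Myh6 was 0.032 with quantile normalization and 0.0096 with TPM, and Myl4 was -0.052 with median-ratio scaling, -0.19 with quantile normalization and -0.079 to 0.12 over the libraries left out. In Sham+pimobendan minus Sham+control the ranges over libraries left out were -0.77 to 1.25 for Myh7, -0.018 to 0.078 for Myl3, -0.092 to 0.39 for Myl4 and -0.26 to 0.015 for Mylk3, and Myl3 was -0.014 with the GC trend removed. In TAC+pimobendan minus Sham+pimobendan they were -0.35 to 0.13 for Myl4 and -0.26 to 0.35 for Myl7; the GC trend removed gave 0.0090 for Myl3 and 0.049 for Myl4, and a pseudocount of 0.1 gave -0.31 for Myl7.

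For the Myh7 share in percentage points, medians gave -0.024 in TAC+control minus Sham+control (-0.0881 to 0.174 over libraries left out) and -0.204 in Sham+pimobendan minus Sham+control (-0.182 to 0.954), and the mean pimobendan effect ranged over 0.367 to 0.935. The Myl7 share in TAC+pimobendan minus Sham+pimobendan was -6.53e-06 by medians, -1.34 as a log2 ratio and -0.00109 to 0.00201 over libraries left out, and its mean TAC effect 0.00170 to 0.00337. The Myl4 share in TAC+control minus Sham+control was 0.00135 by medians and -0.00228 to 0.00121 over libraries left out, and in TAC+pimobendan minus Sham+pimobendan 0.053 as a log2 ratio and -0.00635 to 0.00309. Leaving out a library gave -0.00151 to 0.00793 for that share in Sham+pimobendan minus Sham+control and -0.00362 to 0.00111 for its mean TAC effect.

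With 3 mice a group, a share cannot reach a p under 0.1 in a pairwise test. The spread of Myh7 leaves log2 intervals of about 4 units, so the size of its change is not fixed by these libraries. Myl7 could not be fitted under a filter of a mean of at least 1 FPKM, because its mean is 0.642 FPKM.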
